A study of Mus musculus with 3 samples.

Results

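Gzma, Gzmb, Nkg7, Cpa3, Klrd1, Il2rb, Fcer1g, Cd7, Ccl5 and Zbtb16 are 10 innate effector genes that were measured in the hematopoietic cells of fetal mouse thymic lobes. They are 10 of the 27998 genes counted. The genes were chosen by their UMI counts in these libraries, compared by genotype and by detection of Cd3g, so the differences of both kinds given here are descriptions and carry no test. A UMI is a molecular tag that counts an RNA molecule once. The cells were those with at least 1 UMI of Ptprc, which encodes the leukocyte antigen CD45, along with at least 200 genes, at least 2000 UMIs and under 20% mitochondrial UMIs. These were 2180 of 19583 cells that passed the same limits without Ptprc, and 1025 of the 2180 also held Cd3g, which encodes a chain of the T cell receptor complex.

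The lobes were taken from C57BL/6 embryos at embryonic day 13 to 13.5, freed into cells with trypsin and run as 1 droplet library of 3′ tags per genotype. The control genotype was Tbx1+/+, with the normal transcription factor gene Tbx1. The second was Tbx1neo2/neo2, homozygous for an allele that lowers Tbx1 and models the small thymus of DiGeorge syndrome. The third was Foxn11089/1089, homozygous for a short deletion in Foxn1, the transcription factor that thymic epithelial cells need. Both are germline alleles, and the number of embryos behind a library is not given in the sources used here. With 1 library per genotype there is no replicate, so genotype, embryo and library cannot be told apart, and every 95% interval covers counting error only. Tbx1 stood at 1.40, 4.79 and 5.44 UMIs per 1000000 UMIs (CPM) over all cells kept in the control, Tbx1neo2/neo2 and Foxn11089/1089 libraries. The level of Tbx1 was thus not lower in the second than in the first, and the second is called the library labelled Tbx1neo2/neo2. These levels rest on 114, 647 and 1095 UMIs summed over all cell types. The Foxn11089/1089 library, whose named mutation is in another gene, was also above the control, so the sums do not check the label. Foxn1 stood at 38.4, 34.8 and 76.7 CPM, which checks nothing, since 3′ tags do not read the deletion. Values listed without names follow this order of libraries.

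Innate lymphocytes act without a rearranged antigen receptor. Natural killer cells and cytotoxic T cells store granzymes, which are proteases, in granules together with perforin and release them onto a target cell, and they read their targets through lectin-like receptors such as CD94. The first waves of lymphoid cells in the fetal thymus include γδ T cells, innate lymphoid cells and lymphoid tissue inducer cells beside the earliest T cell precursors. Several effector genes are known to be read in fetal thymocytes before the antigen receptor is complete.

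The Ptprc-positive cells numbered 1190, 450 and 540, which was 22.4%, 11.4% and 5.24% of the cells kept. Their median depth was 20682.5, 60113 and 30201.5 UMIs, so a gene was easier to detect in the library labelled Tbx1neo2/neo2. Shares of cells with a member are therefore given after each cell was thinned to 2000 UMIs, whereas Ptprc, Cd3g and the class of cells with both Klrd1 and Ccl5 were called from all UMIs of a cell. Cd3g was found in 648, 261 and 116 of these cells, or 54.5%, 58.0% and 21.5%. At least 3 of the macrophage genes were found after thinning in 32, 43 and 75 cells, at least 3 dendritic cell genes in 40, 9 and 71, at least 3 mast cell genes in 2, 0 and 1, and at least 3 erythroid genes in 30, 15 and 199. The median share of erythroid UMIs in a Ptprc-positive cell was 0.0455%, 0.0330% and 0.130%. It was 0.0170%, 0.0238% and 0.129% in stromal cells without Ptprc. By the median, erythroid UMIs of the Foxn11089/1089 library were thus not particular to Ptprc-positive cells, and an erythroid mark alone does not name a cell type there. Summed over Ptprc-positive cells the erythroid share was 0.393%, 0.620% and 2.20%, so some cells held far more than the median. What these cells were was not tested. Marks of the other cell types moved with genotype, above all in the Foxn11089/1089 library. Their part in the differences below was not tested unless values without them are given. Only 1 cell barcode was shared between Ptprc-positive cells of different libraries.

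Ptprc itself missed lymphocytes. Among cells kept without a Ptprc UMI, 155, 66 and 26 held Cd3g. In the control library these 155 cells read Gzma at 3401 CPM and Nkg7 at 212.6 CPM, below the 5147 and 282.5 CPM of cells with both Ptprc and Cd3g, whereas the corresponding cells of the other libraries read Gzma at 26.9 and 33.2 CPM. The cells described below therefore leave out some control lymphocytes.

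The 5′ flanks of the genes coding for granzyme A and granzyme B are shown because these 2 genes had the largest drop in the Foxn11089/1089 library. RefSeq windows were matched for 5 of the 10 genes, namely Gzma, Gzmb, Nkg7, Fcer1g and Cpa3. Each run is the 250 bases before the RefSeq start on GRCm38.p6, 5′ to 3′ on the strand of the gene. Capitals mark TGTGGT or its reverse complement, the core letters bound by RUNX factors, searched on both strands. The Gzma window is chr13:113100982-113101231, minus strand, and the Gzmb window is chr14:56262335-56262584, minus strand.
Gzma: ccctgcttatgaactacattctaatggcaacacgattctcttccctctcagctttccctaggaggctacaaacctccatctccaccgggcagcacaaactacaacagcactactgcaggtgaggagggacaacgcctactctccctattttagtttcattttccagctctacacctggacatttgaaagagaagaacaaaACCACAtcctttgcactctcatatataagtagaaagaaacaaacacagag
Gzmb: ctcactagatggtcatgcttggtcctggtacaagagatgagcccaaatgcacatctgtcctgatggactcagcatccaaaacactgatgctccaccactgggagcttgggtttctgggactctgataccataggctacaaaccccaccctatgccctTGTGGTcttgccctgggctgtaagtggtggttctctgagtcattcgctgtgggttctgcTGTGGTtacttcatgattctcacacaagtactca
The core letters occurred 1 time in the Gzma window and 2 times in the Gzmb window. The windows of Nkg7 and Cpa3 held 1 match each and that of Fcer1g held 0. The same letters were in 14.05% of the 32851 RefSeq windows of this length. AGATAA, the letters bound by GATA factors, was found in the Cpa3 window alone among the 5, against 9.99% of all windows. AGGTGT, part of a T-box site, was in the Gzma and Nkg7 windows, against 11.8% of all windows. A match describes letters and does not show binding.

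The granule proteases came first in role. Gzma lies on chromosome 13 (chr13:113093825-113100981, minus strand, mm10) and encodes granzyme A. It was read at 3095 CPM (95% interval, 3072 to 3117) in the control library, 2794 CPM (2774 to 2814) in the library labelled Tbx1neo2/neo2 and 1118 CPM (1103 to 1134) in the Foxn11089/1089 library. After thinning it was found in 56.8%, 52.7% and 25% of Ptprc-positive cells. The level in the Foxn11089/1089 library was thus the lowest, by 2.77-fold against the control. Within Cd3g-positive cells the 3 libraries were closer, at 5147, 4324 and 3061 CPM, and the share of cells with Gzma was 87.8%, 83.5% and 65.5%. Cd3g-negative cells held 470.5, 212.4 and 531.1 CPM, so the library with the least Gzma overall did not have the least in these cells. In a sum over all Ptprc-positive cells, fewer cells of a type and less RNA per cell cannot be told apart.

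Gzmb, on chromosome 14 (chr14:56258838-56262260, minus strand), encodes granzyme B. It was read at 257.8 CPM (251.4 to 264.4), 337.4 CPM (330.6 to 344.4) and 14.5 CPM (12.8 to 16.4). The Foxn11089/1089 library was 17.8-fold below the control, a log2 ratio of −4.15 (−4.33 to −3.98), and stood far outside the other 2 libraries. Thinned cells with Gzmb made up 21.01%, 20% and 2.41%. Unlike Gzma, Gzmb was low in both classes of cell, at 371.4, 505.9 and 42.9 CPM with Cd3g and 112.7, 53.2 and 5.92 CPM without. The log2 ratio of the Foxn11089/1089 library to the control was −3.11 in the former and −4.25 in the latter. For all Ptprc-positive cells the ratio lay between −4.55 and −3.56 in the 13 alternative settings run for it.

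Nkg7 codes for a granule membrane protein of cytotoxic lymphocytes and lies on chromosome 7 (chr7:43437073-43438249, plus strand). Ptprc-positive cells read it at 224.5, 207.2 and 116.0 CPM. In Cd3g-positive cells it did not follow genotype, at 282.5 CPM (273.5 to 291.6), 270.8 CPM (263.1 to 278.7) and 286.1 CPM (270.3 to 302.6). The log2 ratio of the Foxn11089/1089 library to the control was 0.02 (−0.08 to 0.11) there, and −1.22 in Cd3g-negative cells, which read 150.4, 99.9 and 64.6 CPM. Cpa3, carboxypeptidase A3, is a granule protease best known from mast cells and lies on chromosome 3 (chr3:20215620-20242181, minus strand). It stood at 153.8, 191.2 and 146.8 CPM. Cells with 3 mast cell genes held 6.84%, 0% and 4.35% of its UMIs, so nearly all Cpa3 lay in cells without a mast cell mark. Cd3g-positive cells read it at 172.7, 257.1 and 322.7 CPM, the order opposite to that of Gzma.

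Among the receptors, Klrd1 encodes CD94, the lectin-like partner of NKG2 receptors, and lies on chromosome 6 (chr6:129591782-129598775, plus strand). It was read at 27.7 CPM (25.6 to 29.9), 20.2 CPM (18.6 to 22.0) and 76.6 CPM (72.6 to 80.7), and in 2.94%, 2.22% and 11.5% of thinned cells. In the Foxn11089/1089 library it was thus above the control, where both granzymes were below it. Dendritic-marked cells held 7.11%, 2.36% and 18.8% of the Klrd1 UMIs. Cells without a macrophage, dendritic, mast, stromal or erythroid mark read Klrd1 at 27.1, 22.8 and 89.4 CPM. In Cd3g-positive cells the Foxn11089/1089 library reached 243.0 CPM, whereas the control library held 43.0 CPM and the library labelled Tbx1neo2/neo2 28.3 CPM, a 5.65-fold difference from the control. Il2rb codes for the β chain shared by the receptors of interleukin-2 and interleukin-15 and lies on chromosome 15 (chr15:78479256-78495271, minus strand). It was sparse, with 41, 42 and 82 UMIs in all, or 1.72, 1.54 and 4.44 CPM, and nearly all of them lay with Cd3g, at 39, 36 and 71 UMIs. The Foxn11089/1089 library was the highest, and the 2 others had overlapping intervals, 1.23 to 2.33 and 1.11 to 2.09 CPM.

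Fcer1g and Cd7 were read in many cells of all libraries. Fcer1g encodes the common γ chain that carries signals of Fc receptors and of some natural killer receptors, on chromosome 1 (chr1:171229572-171234365, minus strand). It stood at 501.7, 371.3 and 429.8 CPM. Macrophages also use this chain, and macrophage-marked cells held 13.001%, 38.7% and 51.4% of its UMIs, more than of any other member. Cd7, a surface protein of early lymphoid cells, lies on chromosome 11 (chr11:121036747-121039418, minus strand), where GENCODE also places Gm11775, so that overlapping reads are uncertain. Over all Ptprc-positive cells Cd7 was close between libraries, at 82.4, 78.1 and 74.3 CPM, but not within the classes. In the library labelled Tbx1neo2/neo2 its log2 ratio to the control was 0.20 with Cd3g and −0.91 without it. In the Foxn11089/1089 library it was 0.50 and −0.35. Dendritic-marked cells held 6.92%, 6.12% and 30.7% of its UMIs.

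Ccl5 is the chemokine of the set, which attracts T cells and other leukocytes, and lies on chromosome 11 (chr11:83525778-83530518, minus strand). It was read at 101.2 CPM (97.2 to 105.3), 109.9 CPM (106.0 to 113.9) and 222.1 CPM (215.3 to 229.0). Cd3g-positive cells read it at 139.9, 165.8 and 725.6 CPM, so the Foxn11089/1089 library was 5.19-fold above the control. Zbtb16 encodes PLZF, the transcription factor of innate-like T cells and innate lymphoid precursors, on chromosome 9 (chr9:48654297-48836222, minus strand). It stood at 15.5, 29.0 and 18.8 CPM, highest in the library labelled Tbx1neo2/neo2, which was 1.87-fold above the control. Cd3g-positive cells read 20.4, 40.5 and 49.9 CPM, and Cd3g-negative cells 9.17, 9.58 and 9.37 CPM with overlapping intervals.

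**Figure D1:**
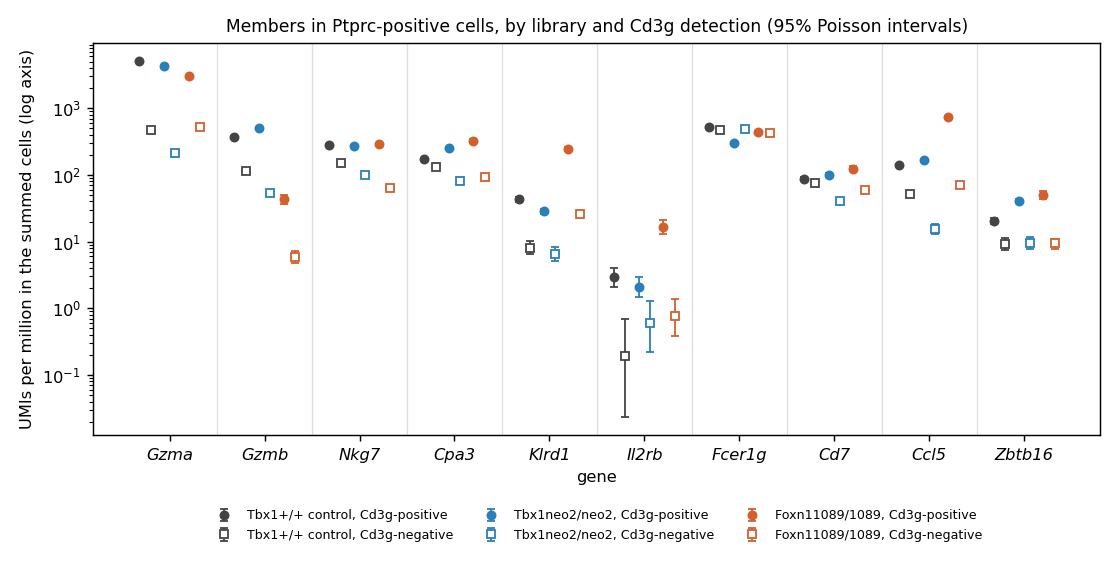
CPM of each gene (log axis) in the summed Ptprc-positive cells of each library, with filled circles for Cd3g-positive and open squares for Cd3g-negative cells and bars for 95% Poisson intervals. Gzmb is lowest in the Foxn11089/1089 library in both classes (42.9 and 5.92), whereas Klrd1 and Ccl5 are highest there among Cd3g-positive cells (243.0 and 725.6).

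Read together, 3 of the 10 genes (Klrd1, Ccl5 and Il2rb) were at least 2-fold higher and 2 (Gzma and Gzmb) at least 2-fold lower in the Foxn11089/1089 library than in the control. Over all 12971 genes with at least 30 UMIs in both libraries together, 23.6% were at least 2-fold higher and 5.26% lower. The median log2 ratio was −0.11 over the members and 0.37 over all genes. Scaling by the median of gene ratios moved all log2 ratios down by 0.37 and left 1 gene (Klrd1) higher and 3 (with Nkg7) lower, with 2191 genes of all higher and 1217 lower in place of 3061 and 682. For the library labelled Tbx1neo2/neo2, 0 of the 10 genes passed 2-fold either way, beside 20.1% of 13105 genes higher and 2.47% lower. The median log2 ratio was −0.10 over the members and 0.45 over all genes. Median scaling moved these ratios down by 0.46 and gave 1228 genes higher and 1120 lower in place of 2635 and 324. It turned the sign of Gzmb, Ccl5 and Cpa3 there and that of Zbtb16 in the Foxn11089/1089 library, so the direction of such small differences rests on the scaling.

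In Cd3g-positive cells, 4 genes (Klrd1, Ccl5, Il2rb and Zbtb16) were at least 2-fold higher and 1 (Gzmb) lower in the Foxn11089/1089 library, where the background was 16.4% higher and 5.1% lower of 10995 genes. With median scaling 3 were higher and 2 lower, beside 1196 and 924 of all genes in place of 1798 and 561. None of the 10 passed 2-fold in Cd3g-positive cells of the library labelled Tbx1neo2/neo2, with 10.4% of 11690 genes higher and 2.77% lower, and median scaling gave 1 lower (Fcer1g) and 425 and 788 genes in place of 1219 and 324. Among all Ptprc-positive cells, with stromal- and erythroid-marked cells left out together, the log2 ratio of the Foxn11089/1089 library to the control was −1.05 for Gzma in place of −1.47, −3.56 for Gzmb in place of −4.15, 1.66 for Klrd1 in place of 1.47 and 1.31 for Ccl5 in place of 1.13.

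**Figure D2:**
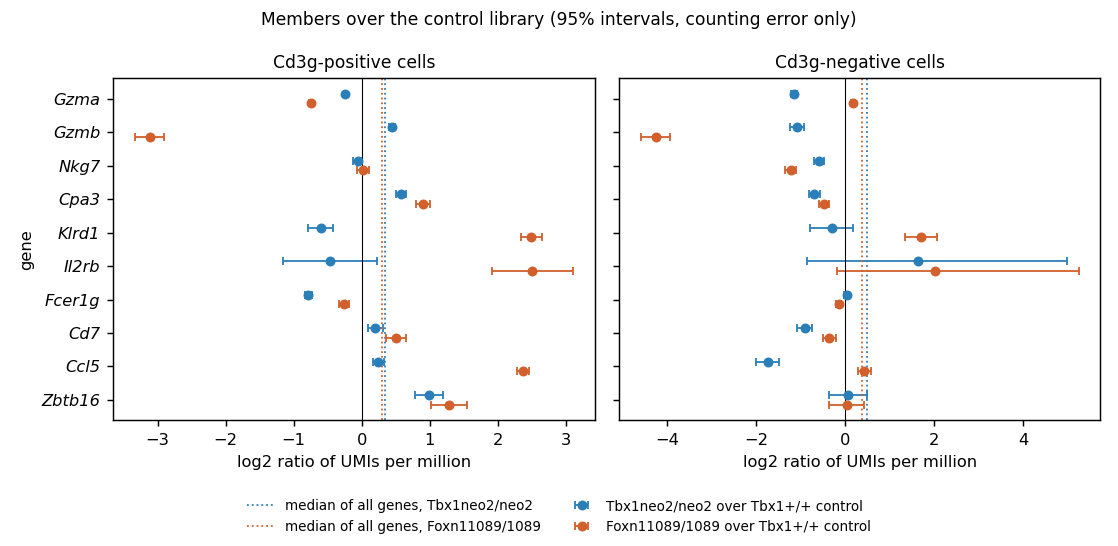
Log2 ratio of CPM over the control library for each gene, in Cd3g-positive (left) and Cd3g-negative cells (right), with 95% counting intervals and dotted lines at the median of all genes. In Cd3g-positive cells of the Foxn11089/1089 library Gzmb lies at −3.11 and Klrd1, Il2rb and Ccl5 lie between 2.38 and 2.51.

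The cells were next divided within each library by detection of Cd3g. In the control library, 6 of 10 genes were at least 2-fold lower in Cd3g-negative than in Cd3g-positive cells, with a background of 3.64% lower and 5.08% higher of 11240 genes. In the library labelled Tbx1neo2/neo2 and in the Foxn11089/1089 library 9 of 10 were lower. The background was 3.95% lower and 17.3% higher of 12313 genes in the former and 2.76% lower and 7.05% higher of 11967 in the latter. None of the 10 was at least 2-fold higher without Cd3g in any library. The median log2 ratio of the members was −1.29, −1.90 and −2.47, beside 0.01, 0.09 and 0.02 over all genes. Since the genes were chosen by this contrast, nothing is read from these counts.

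The sizes differed by gene. Gzma fell by 3.45, 4.35 and 2.53 on the log2 scale without Cd3g. Il2rb had only 2, 6 and 11 UMIs without Cd3g, and its log2 ratios were −3.93 (−7.03 to −1.98), −1.83 (−3.37 to −0.57) and −4.42 (−5.48 to −3.49). Cd7 was close to even in the control library, at −0.21 (−0.34 to −0.08). The exception was Fcer1g, with log2 ratios of −0.14 (−0.20 to −0.09), 0.68 (0.63 to 0.74) and −0.03 (−0.11 to 0.04).

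The members differed in how far their UMIs were spread over cells. The 10 highest cells held 5.08%, 12.3% and 27.6% of the UMIs of Gzma and 4.46%, 8.20% and 13.9% of those of Nkg7. For Gzmb they held 20.3%, 31.5% and 52.6%. For Ccl5 the 10 highest cells held 60.6%, 85.7% and 59.0%. For Klrd1 they held 57.6%, 80.9% and 41.6%, and for Il2rb 78.0%, 85.7% and 72.0%. Few cells thus held much of the UMIs of Klrd1, Ccl5 and Il2rb, and of Gzmb in the Foxn11089/1089 library, and 3 cells of the library labelled Tbx1neo2/neo2 held at least 50% of those of Klrd1, Ccl5 and Il2rb each.

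**Figure D3:**
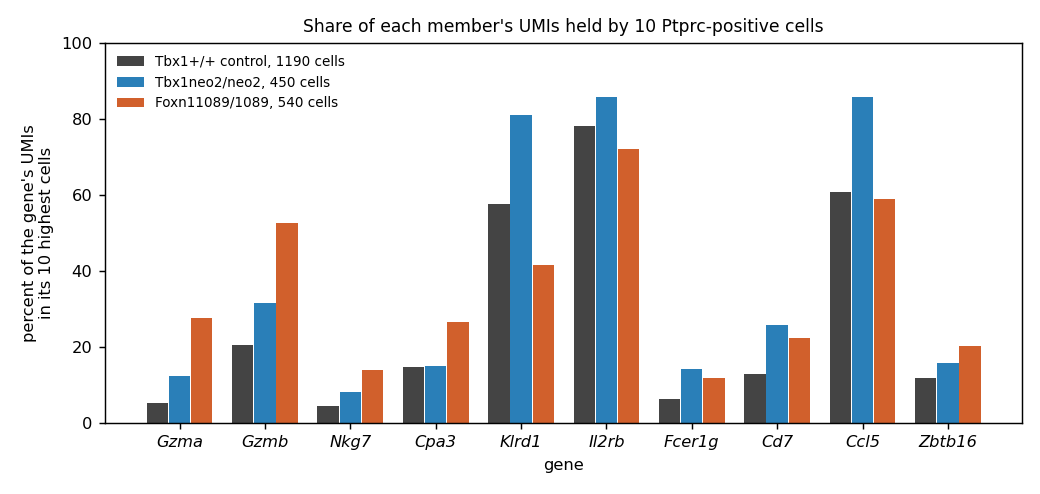
Percent of the UMIs of each gene that lay in its 10 highest Ptprc-positive cells, with 1 bar per library and the number of cells in the legend. Klrd1, Il2rb and Ccl5 reach 41.6% to 85.7%, whereas Nkg7 and Fcer1g stay between 4.46% and 14.2%.

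The members were also counted in a cell type that should lack most of them. Epithelial-marked cells without Ptprc numbered 1648, 668 and 2707 at median depths of 15513.5, 42784 and 20113 UMIs. After thinning, Gzma was found in 1.15%, 1.05% and 0.443% of them and Gzmb in 0.121%, 0.150% and 0% (0 of 2707 cells, upper 95% bound 0.136%). Klrd1 was found in 0% (upper bound 0.224%), 0% (0.551%) and 0.0369%. For these 3 genes the shares were below those of Ptprc-positive cells in every library. For Ccl5 the distance was small in the control library, at 2.002% (1.38 to 2.80) of epithelial-marked cells against 4.87% of Ptprc-positive cells, and larger in the others, at 0.599% against 4.44% and 0.0739% against 11.9%. Single epithelial-marked control cells held up to 90 Ccl5 UMIs, and the 10 highest held 57.4% of its UMIs in these cells. The part of free RNA or doublets in this share was not tested.

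The number of members found in a cell was counted next. After thinning, at least 3 of the 10 were found in 446 of 1190 (37.5%; exact binomial 95% interval, 34.7 to 40.3), 140 of 450 (31.1%; 26.9 to 35.6) and 104 of 540 (19.3%; 16.02 to 22.8) Ptprc-positive cells. Just inside and outside this limit, 255, 78 and 52 cells held 3 members and 313, 100 and 89 held 2. Among Cd3g-positive cells the shares were 54.2%, 49.4% and 56.0%, with overlapping intervals, and among Cd3g-negative cells 17.5%, 5.82% and 9.20%. Among Cd3g-negative cells the intervals of both other libraries lay below that of the control (14.4 to 20.995). They were 2.94 to 10.17 in the library labelled Tbx1neo2/neo2 and 6.62 to 12.4 in the Foxn11089/1089 library. At least 4 members were found in 24.5%, 22.6% and 35.3% of Cd3g-positive cells, the highest share being that of the Foxn11089/1089 library, with an interval that overlapped those of the others.

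Pairs of members were then compared with the number of cells expected if detection were independent, in thinned cells. Such ratios are across cells of 1 library and depend on the mix of cell types. Klrd1 and Ccl5 were found together in 11, 4 and 28 cells where 1.71, 0.44 and 7.35 were expected. Klrd1 and Cd7 shared 21, 5 and 27 cells against 5.06, 1 and 9.07 expected. Gzma and Gzmb shared 209, 82 and 12 cells, against 142.0, 47.4 and 3.25. Gzmb and Klrd1, on the other hand, shared only 2 cells in the control library where 7.35 were expected, and Gzmb and Ccl5 shared 6, 1 and 3 cells where 12.2, 4 and 1.54 were expected. These counts are small, and Gzmb and Klrd1 shared 1 and 2 cells in the other libraries where 2 and 1.49 were expected.

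**Figure D4:**
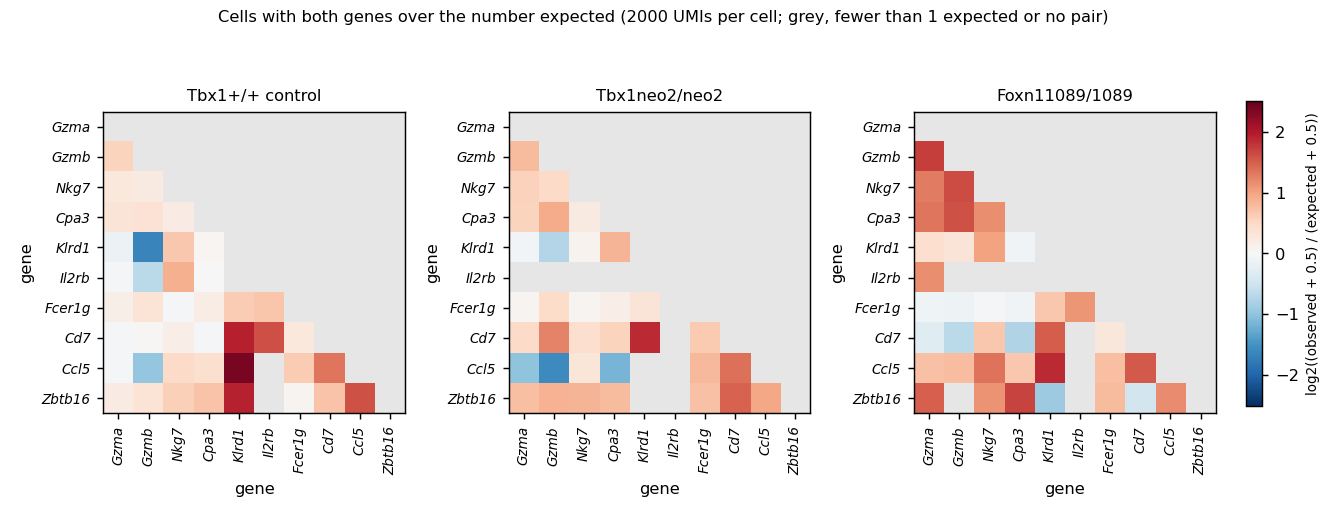
Log2 of observed over expected numbers of cells with both genes of a pair, after 0.5 was added to each, in cells thinned to 2000 UMIs, where red means more and blue fewer cells than expected and grey marks pairs with under 1 cell expected. Klrd1 and Ccl5 are red in the control library (11 cells against 1.71 expected) and in the Foxn11089/1089 library (28 against 7.35), and Gzmb with Klrd1 is blue in the control library.

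The cells with a UMI of both Klrd1 and Ccl5 were looked at further, a class defined after the values were seen. By all UMIs of a cell, they numbered 30 of 1190 (2.52%; 1.71 to 3.58), 16 of 450 (3.56%; 2.05 to 5.71) and 70 of 540 (12.96%; 10.25 to 16.09). Their median depth of 15861.5, 41443 and 20309 UMIs was below that of the other cells, so these cells were not the deeper ones. After thinning, 11, 4 and 28 cells held both genes. Of the Cd3g-positive cells they made up 3.24%, 4.98% and 31.9%. Since the class was defined by these genes, leaving it out takes away counts of both by construction. With it left out, the log2 ratio of Ccl5 between the Foxn11089/1089 library and the control went from 1.13 to 0.10 and that of Klrd1 from 1.47 to 0.93. Of the genes not used to define the class, Gzmb stood at −4.07, Gzma at −1.63 and Nkg7 at −1.21 without it.

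Other members varied inside this class. Gzma stood at 2840, 474.5 and 2276 CPM there, and Gzmb at 245.0, 15.9 and 6.35 CPM. A single cell held 81 of the 115 Gzmb UMIs in the control library, and another 238 of the 389 Gzma UMIs in the library labelled Tbx1neo2/neo2. Il2rb reached 66.0, 42.7 and 37.5 CPM, against 0.43, 0.27 and 1.02 CPM in all other cells. Cd7 reached 502.7, 339.1 and 399.7 CPM, against 73.9, 70.0 and 40.7 CPM.

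The class itself was mixed. Of its 30, 16 and 70 cells, 21, 13 and 37 held Cd3g. The Cd3g-positive cells read Gzma at 3489, 592.8 and 3562 CPM and Nkg7 at 748.9, 469.3 and 507.4 CPM. The Cd3g-negative cells of the Foxn11089/1089 library, 33 in number, read Gzma at 242.9 and Nkg7 at 61.1 CPM and carried dendritic cell genes, with 17 of them dendritic-marked and Cd74, the invariant chain of antigen presentation, at 1961 CPM. Cd74 was likewise at 2017 CPM in the 9 Cd3g-negative cells of the control library and at 366.9 CPM in the 3 of the library labelled Tbx1neo2/neo2, against 47.5, 39.6 and 122.6 CPM in the Cd3g-positive cells of the class. Barcodes scored as likely doublets made up 3, 4 and 13 of the 30, 16 and 70 cells of the class. Among all 1190, 450 and 540 Ptprc-positive cells they numbered 75, 24 and 123.

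Genes that were no members were compared between the same cells and all other Ptprc-positive cells. Of 10793 genes with at least 30 UMIs in each library, 1.89% were at least 2-fold higher in all 3 libraries and 1.39% lower. Klrk1, which encodes the activating receptor NKG2D, ranked first by its smallest ratio over the libraries, at 57.5, 56.1 and 42.7 CPM inside the class and 0.30, 0.57 and 0.36 CPM outside. Xcl1, a chemokine of natural killer cells, stood at 51.1, 39.0 and 294.6 CPM inside. The other 10 leading genes were AW112010, Cd200r4, Arg1, Gimap4, Ctsw, Sytl2, Tnfrsf25, Fgl2, Cxcr3 and Gbp4. The neutrophil genes S100a8, S100a9, Ngp and Camp and the macrophage complement genes C1qb and C1qc were the 6 lowest, S100a8 with 0 UMIs inside in every library.

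Lists of related genes were counted in the same comparison. Of 14 tested genes of innate lymphoid and lymphoid tissue inducer cells, 0 were lower in all 3 libraries. Those higher in all 3 included Id2, which restrains T cell commitment, Ltb, Il1r1, Tox and Arg1. Id2 read 445.2, 1037 and 906.2 CPM inside the class and 45.7, 104.9 and 215.8 CPM outside. Within the class it read 443.0, 1117 and 907.2 CPM with Cd3g and 454.4, 715.4 and 904.6 CPM without it. High Id2 was thus also found in the Cd3g-negative cells of the class, of which 5 of 9, 1 of 3 and 28 of 33 held Cd74. Of 17 tested T cell commitment genes, 1 was higher (Zap70, a kinase of receptor signaling) and 3 were lower (Rag1, Rag2 and Notch1). Rag1, which cuts antigen receptor genes, was found in 0, 1 and 0 cells of the class and in 259, 185 and 27 other cells. Ptcra, the pre-T cell receptor chain, was found in 0 cells of the class in each library.

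The natural killer list held few UMIs, and only 2 of its 14 genes could be tested in every library, of which Klrk1 was higher. The transcription factor Tbx21 was found in 5, 8 and 22 cells of the class and 6, 11 and 15 other cells, and the receptor Ncr1 in 4, 1 and 9 cells of the class and 0 others. Perforin (Prf1) was at 0 UMIs in the class in the control library and in the library labelled Tbx1neo2/neo2. Of 13 tested effector genes that were no members, Ctsw and Xcl1 were higher. Among 8 tested adaptors of immune receptors 3 were higher (Tyrobp, Zap70 and Klrk1), and among 12 cytokine receptor genes 1 was higher (Il12rb1). Of 12 progenitor genes 2 were lower (Lyl1 and Hoxa9). Of 8 dendritic genes 4 were higher (H2-Aa, H2-Ab1, Cd74 and Itgax), although Cd74 in the Cd3g-positive cells of the class was below the 99.1, 43.98 and 295.3 CPM of cells outside it. Of 10 macrophage genes 8 were lower.

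**Figure D5:**
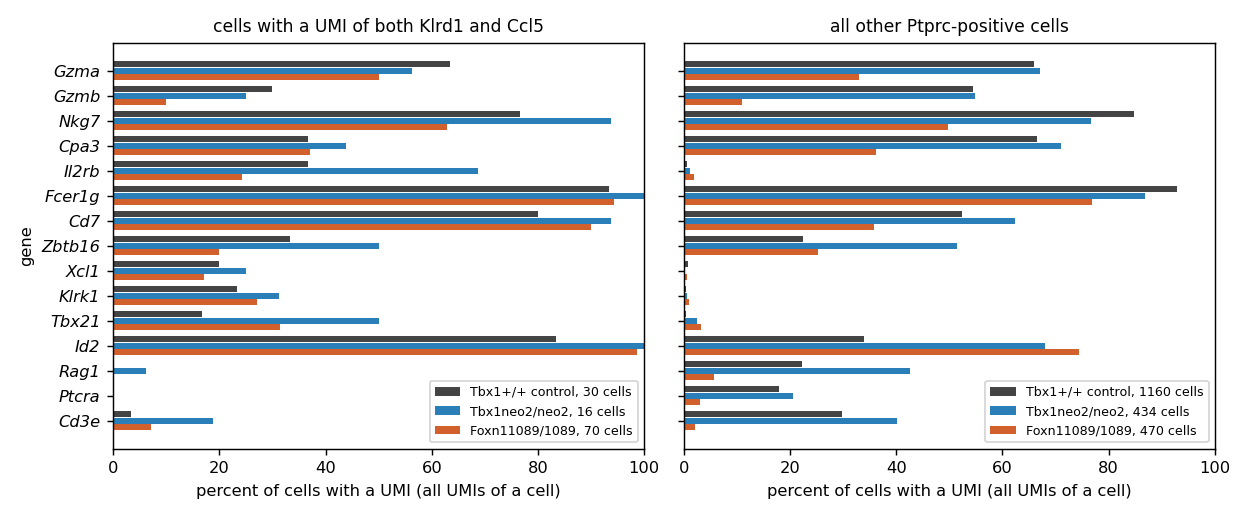
Percent of cells with at least 1 UMI of each gene, without thinning, among Ptprc-positive cells with a UMI of both Klrd1 and Ccl5 (left) and among all others (right), with 1 bar per library and the number of cells in the legend. Il2rb is found in 24.3% to 68.8% of cells on the left and in 0.690% to 1.91% on the right, whereas Rag1 and Ptcra are almost absent on the left.

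The broader class with at least 3 members, found in 446, 140 and 104 cells, was compared with the remaining cells in the same way. Of the same 10793 genes, 0.612% were at least 2-fold higher in all 3 libraries than in cells with fewer members and 2.11% lower. Xcl1 led, at 4.85, 3.77 and 161.0 CPM inside and 0.13, 0.05 and 0.91 CPM outside, followed by Klrk1. By all UMIs, Xcl1 was found in 6, 4 and 12 cells of the class with Klrd1 and Ccl5 and 9, 1 and 3 others. Klrk1 was found in 7, 5 and 19 cells of that class and 5, 3 and 5 others, so few cells held either gene. Rora, a transcription factor of innate lymphoid cells, came next, at 14.1, 44.96 and 47.1 CPM inside and 1.78, 5.61 and 5.35 CPM outside. Il13, a type 2 cytokine, stood at 4.5, 13.5 and 34.4 CPM inside. Other leading genes were Dll1, Ms4a4b, Sytl2, AW112010, Cd200r4, Gp1bb and Ddc. The 6 lowest were BC100530, Gm5483 and the granulocyte genes S100a8, S100a9, Ngp and Camp. Among the lists, 2 of 2 natural killer genes (Klrk1 and Txk) were higher, along with 1 of 17 T cell commitment genes (Themis) and 2 of 13 other effector genes (Ctsw and Xcl1). The γδ T cell list was mixed, with Cd163l1 higher and Maf lower. Only 6 of its 14 genes were among those counted and 5 could be tested, so it says little about γδ T cells. Of 8 adaptor genes 1 was higher (Klrk1) and 1 lower (Fcgr1), of 12 progenitor genes 4 were lower (Flt3, Lmo2, Mef2c and Hoxa9), of 10 macrophage genes 9 were lower, and of 12 cytokine receptor genes 0 passed either way.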

How the data were processed

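Cells of E13 to 13.5 thymic lobes were run as 3 droplet libraries, 1 per genotype. The authors deposited raw UMI counts per gene and barcode, made with Cell Ranger 3.0.0 on mm10 and not normalized. Cells with at least 200 genes, at least 2000 UMIs and under 20% mitochondrial UMIs were kept, and those with a Ptprc UMI were used, 450 to 1190 per library. Counts were summed per library and class and divided by the class total (CPM). Intervals are exact 95% Poisson, conditional binomial or Clopper-Pearson intervals. No test was made, since a group is 1 library. Genes with at least 30 UMIs over both sums compared, or in each library where classes of cells were compared, entered the 2-fold counts. For those counts, for ratios between classes of cells and for the alternative settings 0.5 UMIs were added to each sum, but not for the ratios of the members given with intervals. Shares of cells with members were taken after thinning each cell to 2000 UMIs (seed 1). Ptprc, Cd3g and the class with Klrd1 and Ccl5, with the cell counts inside it, used all UMIs. A cell was marked by a list when at least 3 of its genes were found after thinning. Likely doublets were the barcodes with the highest Scrublet scores (scanpy 1.11.5), 0.8% of a library for every 1000 barcodes, and were kept except in 1 alternative. Scripts were tested on simulated data. Coordinates are from GENCODE M21. Besides the 10 members, the text names the 12 genes with the highest smallest ratio and the 6 with the lowest highest ratio, list genes past 2-fold in all 3 libraries, and genes of the class with Klrd1 and Ccl5, which was chosen after its values were seen. A gene that this rule names is not reported here. Members and lists were chosen with earlier results of these data known. In all, 18 alternative settings, and 2 chosen after seeing the data, were run.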

Additional observations from a re-analysis of the deposited data

Results flagged for a closer look

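Fcer1g differed between libraries in its direction by Cd3g. Its log2 ratio of Cd3g-negative over Cd3g-positive cells was −0.14 in the control library, 0.68 in the library labelled Tbx1neo2/neo2 and −0.03 in the Foxn11089/1089 library. Macrophage-marked cells held 13.001%, 38.7% and 51.4% of its UMIs, and their part in this was not tested.

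Other members differed from the control in opposite directions in Cd3g-positive and Cd3g-negative cells, with counting intervals that left out 0 on both sides. In the library labelled Tbx1neo2/neo2 the log2 ratio to the control with and without Cd3g was 0.45 and −1.08 for Gzmb, 0.25 and −1.74 for Ccl5, 0.20 and −0.91 for Cd7, and 0.57 and −0.69 for Cpa3. In the Foxn11089/1089 library it was −0.75 and 0.17 for Gzma, 0.50 and −0.35 for Cd7, and 0.90 and −0.47 for Cpa3. The median of all genes stood at 0.34 with Cd3g and 0.49 without it in the library labelled Tbx1neo2/neo2, and at 0.30 and 0.38 in the Foxn11089/1089 library. Relative to that median, Ccl5 and Cd7 in the former and Gzma in the latter lay below it in both classes. These differences between classes were not tested, since each genotype is 1 library.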

How the results depend on the processing

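No paired analysis was possible because each genotype is 1 library and no result comes from a test. The settings reuse cells of the same libraries, and the members were chosen by these contrasts, so agreement between settings is no independent support. Single members past 2-fold kept their direction in 388 of 391 comparisons over the settings and stayed past 2-fold in 374. The 3 that reversed were log2 ratios of Cd3g-negative over Cd3g-positive cells. With Ptprc and Cd3g called after thinning, Klrd1 in the library labelled Tbx1neo2/neo2 came to 0.39 and Gzmb in the Foxn11089/1089 library to 1.35, and with cells holding Klrd1 and Ccl5 left out, Cd7 in the Foxn11089/1089 library came to 0.055. The causes were not tested. Of the alternative values of the counts, medians and shares, 190 stayed within the main value's interval (for counts, within 1.5 times) and 56 did not. For a median, that interval reaches the median half-width of the members' counting intervals to either side.

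The median log2 ratio of the members between the library labelled Tbx1neo2/neo2 and the control was 0.020 with a mitochondrial limit of 10%, 0.040 from 4000 UMIs per cell, −0.015 without macrophage- and dendritic-marked cells and −0.55 with median scaling. Between the Foxn11089/1089 library and the control it was 0.29 with thinned calls, 0.15 without likely doublets, 0.10 without stromal- and erythroid-marked cells, −0.25 without Klrd1 and Ccl5 cells, 0.10 with cells weighted equally and −0.48 with median scaling. Members at least 2-fold higher there numbered 0 of 9 without Klrd1 and Ccl5 cells, which removes cells chosen by 2 of the members (all genes, 22.9%), and 1 of 10 with median scaling (16.9%). In the library labelled Tbx1neo2/neo2, 2 of 10 were lower with thinned calls (2.89%) and 1 of 10 was higher without stromal- and erythroid-marked cells (14.5%).

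The median by Cd3g was −1.46, −1.66 and −2.32 from 2 Ptprc UMIs, −1.15, −1.28 and −1.29 with thinned calls and −0.83, −1.69 and −1.77 without Klrd1 and Ccl5 cells. In the library labelled Tbx1neo2/neo2 and the Foxn11089/1089 library it was −1.73 and −2.12 without macrophage- and dendritic-marked cells, −1.59 and −2.18 without stromal- and erythroid-marked cells and −2.37 and −2.78 with cells weighted equally. In the control library and the library labelled Tbx1neo2/neo2 it was −1.15 and −2.07 from 100 UMIs per gene, and in the Foxn11089/1089 library −2.78 when split by Cd3g, Cd3d or Cd3e. With thinned calls, 5 of 9 members were lower in the library labelled Tbx1neo2/neo2 (all genes, 4.0%) and 1 of 10 was higher in the Foxn11089/1089 library (884 of 8654 genes).

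The share of cells with 3 members was 18.3%, 19.5% and 11.4% with cells thinned to 1000 UMIs. It was 86.8%, 77.8% and 58.5% without thinning, and 14.5%, 13.8% and 8.70% without Fcer1g and Cpa3. It was 63.8%, 53.3% and 35.7% for 2 members, 16.1%, 13.8% and 9.63% for 4, and 2.52%, 3.56% and 12.96% for Klrd1 with Ccl5. With thinned calls it was 41.1% in the library labelled Tbx1neo2/neo2 and 26.2% in the Foxn11089/1089 library, and there 23.3% without macrophage- and dendritic-marked or without stromal- and erythroid-marked cells. Settings on Klrd1 and Ccl5 cells were chosen after seeing the data.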

Other observations

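Ccl5 was also read outside Ptprc-positive cells in the control library, where free RNA and doublets were not tested. Epithelial-marked cells without Ptprc held it at 29.98, 4.12 and 0.405 CPM in the control library, the library labelled Tbx1neo2/neo2 and the Foxn11089/1089 library. In the control library 97 of 1648 such cells had a UMI of Ccl5, up to 90 UMIs in a cell, and the 10 highest cells held 57.4% of them. Klrd1 was at 0.0376 CPM in the same control cells.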
